A study of Mus musculus with 9 samples.

Results

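Cytosolic ribosomal proteins were followed as a set of 35 genes, taken as every array probe whose RefSeq accession belongs to a listed gene. The list is a part of the class and was chosen with earlier results of these data known. Its counts and medians therefore stand for these genes only. Another 49 cytosolic ribosomal protein genes were on the array and are given below as a separate list. All 35 were found among the 18353 genes named on the array, through 46 of its 41174 probes. The set holds 14 proteins of the small subunit, 18 of the large subunit and the 3 proteins of its stalk. A single probe reported 25 genes, 2 probes reported 9 genes and 3 probes reported Rpl7. All 46 probes passed the filter on dim probes, and 45 of them were well above background on all 9 arrays. Each gene was counted by its brightest probe, the probe with the highest mean over the 9 arrays, and its other probes are given beside it.

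The arrays carried RNA of normal colonic mucosa from ICR mice. Every group had received 20 mg/kg of 1,2-dimethylhydrazine (DMH), a colon carcinogen, under the skin each week for 20 weeks, so no group was free of the carcinogen. The DMH group (3 arrays) had plain drinking water. The butyrate group drank water with 1.5% butyrate and was divided by the titles into mice without tumors (3 arrays) and mice with tumors (3 arrays). The mucosa itself was labelled normal in all 3 groups, and the DMH group was not divided by tumor status. Age and sex were not given in the sources used here, and nothing says whether an array held 1 mouse or several. P-values therefore measure the spread between these samples, which may be partly technical.

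A conflict between labels touches every statement on tumor status. Titles, descriptions and source names match one another, but a separate tumor status field reverses the status of every butyrate sample (6 of 6). The groups follow the titles, and if that field is right, the names of the butyrate groups exchange and the sign between them turns. A second limit is the layout. Slide 1 carried all 3 arrays of mice without tumors plus array 1 with tumors, and slide 2 carried arrays 2 and 3 with tumors. DMH array 1 lay on slide 3 and DMH arrays 2 and 3 on slide 4, and both of these slides were scanned on a separate day. In every comparison with DMH, treatment therefore cannot be told apart from slide or scan day.

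Levels are the log2 of the scanner's processed signal minus the log2 of the 75th percentile of that array, so that percentile is the level 0. It was lower on slide 1, between 188 and 444 signal units, than on the other slides, between 740 and 880. No spot was saturated. The brightest probes of Rpl3, Rpl6 and Rplp2 had their spot on array 1 with tumors marked as an outlier by the scanner software, and their values rest on the other 8 arrays. As a check of the labelled tissue, 10 of 10 epithelial markers, Epcam and Krt20 among them, were well above background on all 9 arrays, as were 7 of 7 smooth muscle and 8 of 8 lymphocyte markers. Detection therefore does not show how much of each tissue an array held, and the levels of these markers differed between groups, as given below.

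Ribosomes are built from ribosomal RNA and about equal numbers of copies of each ribosomal protein, and the small subunit reads the message while the large subunit forms the peptide bond. The stalk of the large subunit is made of Rplp0 and the small acidic proteins Rplp1 and Rplp2, and it recruits the elongation factors. Many of these messages begin with a terminal oligopyrimidine (TOP) tract, through which the growth kinase complex mTORC1 controls their translation. The colonic epithelium renews itself quickly and is rich in ribosomes in the dividing crypt.

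Most members were lower in the butyrate group without tumors than in the DMH group. In this comparison 25 of 35 fell and none rose, where a call is an adjusted p under 0.05 in limma with Benjamini-Hochberg adjustment over all 28521 probes tested. Among all named genes tested, 14.2% were called lower and 14.6% higher. The members' median log2 change was -1.28, between -2.86 and 0.31, against a median of 0.02 over all probes. All 3 arrays without tumors lay below all 3 DMH arrays for 32 members, which was so for 28.6% of named genes. The log2 change was beyond -1, a drop by more than 2-fold, for 19 members. No member was called higher at an unadjusted p under 0.05 either, and 27 were lower by that measure. That count depended on scaling, with 23 lower and 2 higher under quantile scaling. Under normexp background correction with quantile scaling 23 were lower and 3 higher, and 26 of 35 changes were negative under each. With the slide as a random block, which treats arrays of a slide as correlated, 15 members were called lower.

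**Figure D1:**
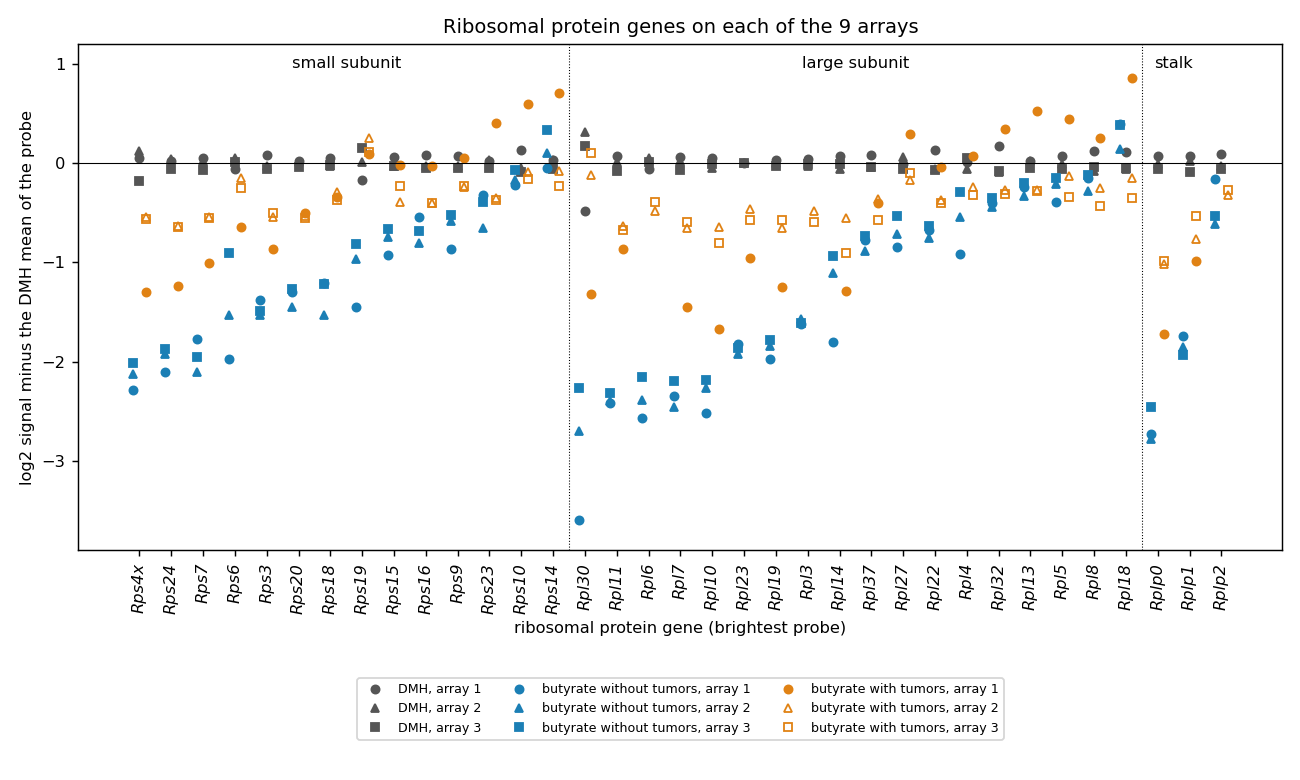
Each point is the log2 signal of 1 array minus the mean of the 3 DMH arrays for the brightest probe of each gene, ordered within the small subunit, the large subunit and the stalk by the change without tumors. The arrays without tumors (blue) lie below all DMH arrays (grey) for 32 of 35 genes; array 1 with tumors (filled orange), of the same slide as the blue points, has no point for Rpl3, Rpl6 and Rplp2.

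Rpl30, a small protein of the large subunit, showed the lowest log2 change of the set without tumors against DMH. Its level was 1.47, 2.37 and 2.80 on the arrays without tumors, 3.74, 4.95 and 5.17 on those with tumors, and 4.58, 5.38 and 5.24 on the DMH arrays. The arrays without tumors were the lowest 3 of the 9, while the with-tumor and DMH ranges overlapped. The change without tumors against DMH was -2.86 ± 0.46 (SE; adjusted p = 0.0050, limma), a 7.24-fold lower level. With the slide as a random block the adjusted p rose to 0.059, the only setting tried that ended this call.

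Rplp0, the base of the stalk, is often taken as a reference gene of steady expression. Its brightest probe gave 5.59, 5.54 and 5.86 without tumors, 6.59, 7.30 and 7.33 with tumors, and 8.39, 8.30 and 8.26 in DMH. The 3 groups did not overlap, and both butyrate groups were below DMH. The change was -2.66 ± 0.22 without tumors (adjusted p = 0.00096, limma) and -1.24 ± 0.22 with tumors (adjusted p = 0.033, limma). A second Rplp0 probe fell less without tumors, by 0.78 on the log2 scale (adjusted p = 0.011, limma).

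Rplp1 stood at 6.34, 6.23 and 6.15 without tumors, at 7.10, 7.32 and 7.55 with tumors and at 8.15, 8.10 and 7.99 in DMH. Here too the 3 groups were separate, with DMH highest. The changes against DMH were -1.84 ± 0.16 without tumors (adjusted p = 0.0011, limma) and -0.76 ± 0.16 with tumors (adjusted p = 0.042, limma). Rplp2, the partner of Rplp1 in the stalk, was not called, with -0.44 ± 0.17 (adjusted p = 0.094, limma) without tumors.

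Rpl11 is a large-subunit protein that joins the ribosome together with Rpl5 and, when free, binds the ubiquitin ligase Mdm2. Its levels were 4.98, 5.01 and 5.09 without tumors, 6.54, 6.77 and 6.73 with tumors, and 7.47, 7.41 and 7.32 in DMH. Replicates lay close together in every group, and the groups did not overlap. The change without tumors was -2.38 ± 0.14, with the smallest adjusted p of the set (0.00030, limma), a 5.19-fold lower level. Rpl5 behaved otherwise: 5.96, 6.14 and 6.20 without tumors stood beside 6.43, 6.34 and 6.30 in DMH, and its change of -0.25 ± 0.21 was not called (adjusted p = 0.38, limma).

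Promoter sequence was examined for the members with an entry among the RefSeq promoters of GRCm38.p6, which span 250 bases before to 50 bases after the annotated start. Entries matched 27 of the 35 members, with 32 promoters. The 4 windows below span 100 bases before to 20 after the start, 5′ to 3′ on the strand of the gene. They are shown because these genes had the 2 lowest (Rplp0, Rpl11) and the 2 highest (Rps10, Rpl18) changes without tumors against DMH among members with a single promoter entry. Capitals mark TTCCGG, which holds the core of the binding sites of ETS factors such as GABPA, and CTTTCC, a pyrimidine run, each searched on both strands.
Rplp0, chr5:115559367-115559486, plus strand: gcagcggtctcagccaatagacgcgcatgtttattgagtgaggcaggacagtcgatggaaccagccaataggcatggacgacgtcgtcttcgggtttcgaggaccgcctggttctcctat
Rpl11, chr4:136053374-136053493, minus strand: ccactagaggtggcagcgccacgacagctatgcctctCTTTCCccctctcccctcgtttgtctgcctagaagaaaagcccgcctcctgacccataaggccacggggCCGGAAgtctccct
Rps10, chr17:27635225-27635344, minus strand: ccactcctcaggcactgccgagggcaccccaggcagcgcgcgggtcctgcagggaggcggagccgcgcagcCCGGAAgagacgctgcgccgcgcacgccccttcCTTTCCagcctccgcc
Rpl18, chr7:45717971-45718090, plus strand: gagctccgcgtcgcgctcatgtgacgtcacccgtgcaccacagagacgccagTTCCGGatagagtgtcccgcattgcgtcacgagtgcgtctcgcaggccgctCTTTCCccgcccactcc
Rpl11, Rps10 and Rpl18 each held both motifs in the window shown, and Rplp0 held neither.

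Over the full entries, TTCCGG was found for 15 of the 27 members. By promoter, it was in 46.9% of the members' promoters and in 14.9% of all 32851 promoters of the table. CTTTCC was found for 12 members, in 40.6% of their promoters against 26.6% of all. Of the 20 matched members that fell without tumors, 12 held TTCCGG and 9 held CTTTCC. Of the 7 that were not called, 3 held TTCCGG and 3 held CTTTCC. The motifs overlapped in 1 member promoter, and a match of letters is a description, not a measured site.

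Large-subunit members beyond Rpl30 and Rpl11 included some of the lowest log2 changes. Rpl6 stood at 4.11, 4.29 and 4.52 without tumors, at 6.19 and 6.29 on the 2 arrays with tumors that measured it, and at 6.61, 6.73 and 6.69 in DMH. Rpl7, a protein that contacts the ribosomal RNA of the large subunit, gave 4.90, 4.78 and 5.04 without tumors, 5.80, 6.59 and 6.64 with tumors, and 7.30, 7.26 and 7.17 in DMH. Rpl10, which joins the large subunit late in its assembly, gave 4.12, 4.38 and 4.46 without tumors, 4.98, 6.0 and 5.84 with tumors, and 6.70, 6.60 and 6.64 in DMH. For these 3 genes the groups were separate, with the arrays without tumors lowest. Their changes without tumors against DMH were -2.37 ± 0.16, -2.33 ± 0.23 and -2.32 ± 0.26, with adjusted p-values of 0.00079, 0.0013 and 0.0016 (limma).

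In the large subunit as a whole, 12 of 18 members fell without tumors, with a median change of -1.04. Rpl23, another protein that can bind Mdm2, changed by -1.87 ± 0.16. Rpl19 changed by -1.87 ± 0.20 and Rpl3, which reaches toward the catalytic centre, by -1.60 ± 0.14. Rpl14 fell by 1.28, Rpl37 by 0.80, Rpl27 by 0.70 and Rpl22 by 0.69 on the log2 scale. Rpl4, Rpl5, Rpl8, Rpl13, Rpl18 and Rpl32 were not called, with changes from -0.59 (Rpl4, adjusted p = 0.054, limma) to 0.31 (Rpl18).

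Rpl18 was the 1 member whose arrays without tumors all lay above DMH, as 31.7% of named genes did. Its levels were 6.42, 6.17 and 6.41 without tumors, 6.88, 5.88 and 5.67 with tumors, and 6.14, 5.97 and 5.98 in DMH. Array 1 with tumors was the highest of the 9, and the other arrays with tumors were the lowest. The change without tumors had an adjusted p of 0.45 (limma).

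In the small subunit 11 of 14 members fell without tumors, with a median change of -1.20. Rps4x, the X-linked member, gave 4.97, 5.13 and 5.24 without tumors, 5.95, 6.70 and 6.69 with tumors, and 7.30, 7.38 and 7.07 in DMH. Rps24, needed for processing of the small-subunit ribosomal RNA, gave 5.40, 5.58 and 5.64 without tumors, 6.27, 6.88 and 6.87 with tumors, and 7.53, 7.55 and 7.45 in DMH. Both were separate in all 3 groups. Their changes without tumors were -2.14 ± 0.23 and -1.97 ± 0.19 (adjusted p = 0.0015 and 0.0013, limma).

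Rps7 followed with -1.94 ± 0.18, and Rps6, the target of the ribosomal S6 kinases, with -1.47 ± 0.27. Rps6 stood at 3.40, 3.83 and 4.47 without tumors against 5.31, 5.42 and 5.38 in DMH, a wider spread without tumors and no overlap. Rps3, which sits where the message enters the ribosome, fell by 1.46, Rps20 by 1.34, Rps18 by 1.32 and Rps19, a gene mutated in Diamond-Blackfan anemia, by 1.07. Rps15, Rps16 and Rps9 fell by 0.78, 0.68 and 0.66. The 3 members that were not called were Rps23 (-0.46 ± 0.23), Rps10 (-0.16 ± 0.22) and Rps14 (0.13 ± 0.25).

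**Figure D2:**
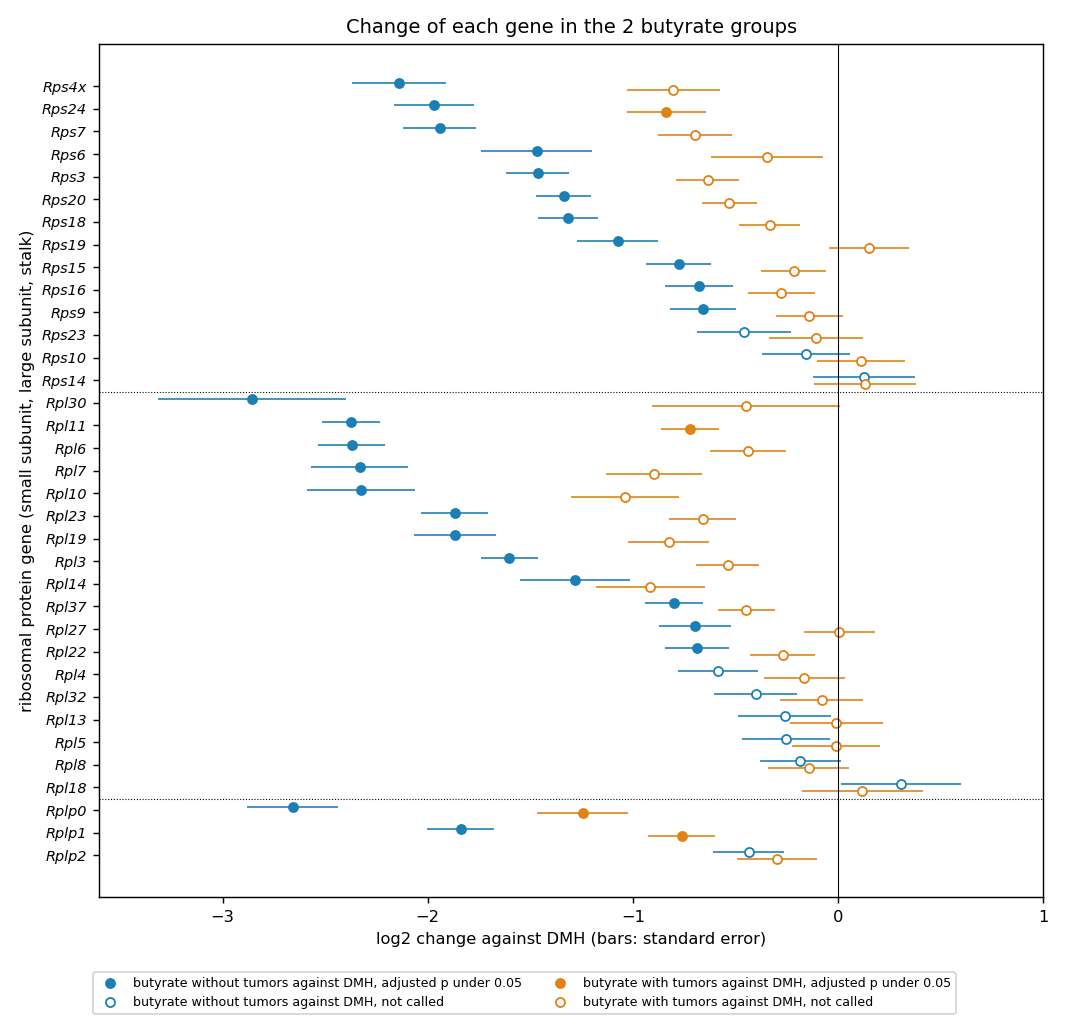
Points give the log2 change of the brightest probe against DMH and bars its standard error, in blue without tumors and in orange with tumors; filled points had an adjusted p under 0.05. The blue points are filled for 25 genes and the orange points for 4 (Rplp0, Rps24, Rplp1 and Rpl11).

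The butyrate group with tumors was closer to DMH. Here 4 of 35 members fell, Rplp0, Rps24, Rplp1 and Rpl11, and none rose, while 2.4% of named genes were called lower and 2.21% higher. With the slide as a random block, and likewise with a replicate block, 0 members were called lower. The median change was -0.35, between -1.24 and 0.15, against 0.03 over all probes, and 16 members were lower at an unadjusted p under 0.05 (none higher). That count depended on scaling, with 3 lower and 1 higher under quantile scaling and 3 lower and 5 higher under normexp with quantile scaling. Besides the stalk values above, Rps24 changed by -0.84 ± 0.19 (adjusted p = 0.048, limma) and Rpl11 by -0.72 ± 0.14 (adjusted p = 0.038, limma). For 19 members all measured arrays with tumors lay below all DMH arrays, as for 22.6% of named genes. Among these, Rpl3, Rpl6 and Rplp2 lacked array 1 with tumors, where the outlier spot of Rplp2 read 8.47, above all DMH arrays. The outlier spots of Rpl3 and Rpl6 read 5.13 and 5.34, below them. Rpl10 had a change of -1.04 ± 0.26 and Rpl14 of -0.92 ± 0.27, and neither was called (adjusted p = 0.055 and 0.074, limma).

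These 4 calls were not stable. The set's median was near 0, at -0.072 under quantile scaling and -0.015 under normexp background correction with quantile scaling, with 19 of 35 changes below 0 under each, and no member was called under either. No member was called without DMH array 1, 2 or 3, without array 3 with tumors or without array 2 without tumors. Without array 3 without tumors 1 was called, and 8 were called without array 1 with tumors. The share of all probes called in these settings is not given here.

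The 3 arrays with tumors reached nearly the same median by different routes. Their median differences from the DMH mean were -0.38, -0.37 and -0.40, against -1.30, -1.11 and -0.90 for the arrays without tumors. On arrays 2 and 3, 33 of 35 members lay below all DMH arrays together, as 31.1% of named genes did, and no difference was beyond -1.02. Array 1 had values from -1.73 to 0.85. It was below all DMH arrays for 17 of its 32 measured members, as for 42.3% of named genes, and above all of them for 10, as for 45.7% of named genes. Array 1 thus lay apart from DMH for most genes of the array in either direction, and nothing particular to the members is read from these counts.

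Those 10 members were Rps10, Rps14, Rps23, Rpl4, Rpl5, Rpl8, Rpl13, Rpl18, Rpl27 and Rpl32. Every one of them except Rpl27 was among the members not called without tumors. Rps14 read 6.87 on array 1 with tumors, against 6.07 and 5.92 on arrays 2 and 3 and 6.19, 6.19 and 6.09 in DMH. Rpl13 read 7.59, against 6.79 and 6.78 on arrays 2 and 3 and 7.08, 7.09 and 7.01 in DMH. Array 1 stood above both other arrays with tumors for 15 members and below both for 15, against 44.7% and 40.4% of named genes. Its lymphocyte markers were also apart, as given below.

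Taking all 6 butyrate arrays against DMH, 7 members fell and none rose, where 3.54% of named genes were called lower and 4.4% higher. With the slide as a random block, and likewise with a replicate block, 0 members were called. Of all probes, 0.06% and 0.62% were called lower in these 2 settings. The 7 were Rplp0, Rpl10, Rps24, Rpl19, Rplp1, Rpl14 and Rps3, with changes from -1.95 ± 0.44 (Rplp0, adjusted p = 0.035, limma) to -1.05 ± 0.28 (Rps3, adjusted p = 0.047, limma). The second probes of Rplp0, Rpl19 and Rps3 were not called, with -0.60, -0.46 and -1.13 (adjusted p = 0.086, 0.11 and 0.071, limma). Rpl14, a large-subunit protein, gave -0.32, 0.37 and 0.54 without tumors, 0.19, 0.93 and 0.58 with tumors, and 1.55, 1.41 and 1.47 in DMH. Rpl19 gave 5.01, 5.14 and 5.20 without tumors, 5.73, 6.33 and 6.41 with tumors, and 7.01, 6.98 and 6.96 in DMH. All 6 butyrate arrays were below all DMH arrays for both genes. Every measured butyrate array was below all DMH arrays for 19 members in all, against 13.6% of named genes. Among these, Rpl3, Rpl6 and Rplp2 lacked array 1 with tumors, where the spot was left out as an outlier. Those spots read 5.13 and 5.34 for Rpl3 and Rpl6, below all DMH arrays, and 8.47 for Rplp2, above all of them.

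The median change over all butyrate arrays was -0.83 (0.03 over all probes), and 21 members were lower at an unadjusted p under 0.05 (none higher). By that measure 11 were lower and 2 higher under quantile scaling, and 10 lower and 4 higher under normexp with quantile scaling. The count of called members moved with single arrays. The share of all probes called lower, 3.78% with all arrays, moved too and is given in brackets. The count was 2 (2.69%) without array 1 without tumors, and 0 without array 2 (0.27%) or array 3 (1.01%) of that group. It was 0 without DMH array 1 (0.12%), 2 (0.056%) or 3 (0.063%). It was 4 (3.22%) without array 1 with tumors, 15 (6.17%) without array 2 with tumors and 16 (7.62%) without array 3 with tumors. Without the 4 arrays of slide 1 the 2 remaining butyrate arrays gave 13 members called lower (6.98%) and a median of -0.39.

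Between the butyrate groups, 19 of 35 members were lower without tumors than with tumors and none was higher, where 6.01% of named genes were called lower and 6.26% higher. The median difference was -0.81, between -2.41 and 0.19, against -0.01 over all probes. At an unadjusted p under 0.05, 24 members were lower and none higher. The groups did not overlap for 25 members, as for 15.4% of named genes. This comparison tests directly whether the changes against DMH differed between the butyrate groups, and it does not use the DMH values except for the shared estimate of spread.

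The lowest differences were those of Rpl30 (-2.41 ± 0.46, adjusted p = 0.021, limma), Rpl6 (-1.93 ± 0.18, adjusted p = 0.0086, limma) and Rpl11 (-1.65 ± 0.14, adjusted p = 0.0082, limma). Rpl7, Rplp0 and Rps4x followed with -1.43, -1.41 and -1.34. Rps19 was lower by this measure too, at 2.01, 2.50 and 2.65 without tumors and 3.55, 3.71 and 3.57 with tumors. Its DMH arrays, at 3.30, 3.47 and 3.62, overlapped the arrays with tumors. Rpl18 was the 1 member with a positive difference, 0.19 ± 0.29, which was not called.

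Within slide 1, array 1 with tumors was above all 3 arrays of the group without tumors for 31 of its 32 measured members. This was so for 34.5% of named genes. Its difference from their mean had a median of 0.75 and ran from -0.01 to 1.53. This is 1 array, with the lowest 75th percentile (188) and the most outlier spots (234) of the 9, and with the lymphocyte marker sum of 156 given below. Arrays 2 and 3 with tumors, on slide 2, both lay above all 3 for 26 of 35 members, as for 28.8% of named genes. A fit with the slide as a fixed block rests on array 1 alone for the group with tumors, whose spread is assumed to be that of the other arrays. It called 1 of 32 members, Rpl11 (-1.51 ± 0.21, adjusted p = 0.048, limma), with a median of -0.75. Without array 3 with tumors 2 members were called lower, and without array 1 with tumors 20 were called lower and 1 higher.

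Genes with several probes did not give 1 value. Without tumors against DMH, all probes fell for 6 of the 10 such genes and some probes fell for the other 4, and no gene had probes of opposite sign. The distance between a gene's probes had a median of 0.88 and reached 1.87 on the log2 scale. The other comparisons had less agreement. No gene had all its probes called for all butyrate arrays or for the group with tumors against DMH, and 2 did between the butyrate groups. Probes had opposite signs for 2 genes with tumors (Rpl6 and Rpl7) and for 2 between the butyrate groups (Rpl22 and Rpl37). Ribosomal protein genes have many near-identical processed pseudogenes. Probe sequences were not used here, so which copies or which part of a message a probe binds was not tested.

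**Figure D3:**
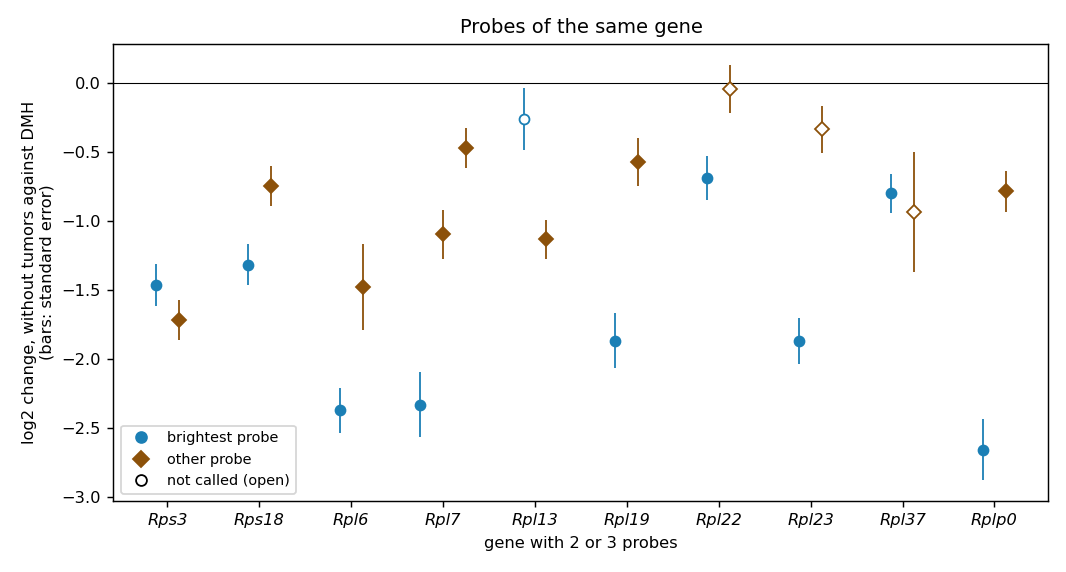
Points give the log2 change without tumors against DMH and bars its standard error for every probe of the 10 genes with several probes; blue circles are the brightest probe, brown diamonds the others, and open symbols were not called. The brightest probe is the lower one for all genes except Rps3, Rpl13 and Rpl37, and the probes of Rpl7 and Rplp0 lie furthest apart.

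The probes of Rpl7 changed by -2.33 ± 0.23, -1.10 ± 0.17 and -0.47 ± 0.15, and all 3 were called. Its least changed probe read 4.53, 4.69 and 4.75 without tumors, 5.07, 5.30 and 5.06 with tumors, and 5.18, 5.13 and 5.07 in DMH. With that probe the arrays with tumors overlapped DMH, while with the brightest they did not. The second probe of Rplp0 read 5.94, 5.96 and 6.20 without tumors, 6.53 and 6.46 on the 2 arrays with tumors that measured it, and 6.90, 6.81 and 6.75 in DMH. On the arrays that measured it, it kept the order of the groups at a smaller distance. Its outlier spot on array 1 with tumors, which was left out, read 7.30, above all 3 DMH arrays. The probe was not called with tumors (-0.32 ± 0.17, adjusted p = 0.24, limma) or between the butyrate groups (-0.46 ± 0.17, adjusted p = 0.10, limma).

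Rpl23 and Rpl22 were called by the brightest probe alone. That probe read 4.99, 4.89 and 4.96 without tumors, 5.86, 6.36 and 6.24 with tumors and 6.81, 6.82 and 6.82 in DMH for Rpl23, with no overlap. The second Rpl23 probe read 2.63, 2.79 and 2.81 without tumors, 2.67, 3.16 and 2.78 with tumors and 3.16, 3.08 and 2.99 in DMH, a change of -0.33 ± 0.17 against -1.87 for the first. With it the arrays with tumors overlapped both other groups. The brightest Rpl22 probe read 5.69, 5.60 and 5.73 without tumors, 6.32, 5.99 and 5.96 with tumors and 6.49, 6.31 and 6.29 in DMH, so the arrays with tumors overlapped DMH. The second Rpl22 probe read 2.60, 3.06 and 3.01 without tumors, 2.63, 2.61 and 2.35 with tumors and 2.90, 2.99 and 2.88 in DMH, a change of -0.04 ± 0.17 against -0.69. For that probe the arrays without tumors overlapped DMH. Rpl22 has a close paralog, Rpl22l1, and Rpl22 is lost in some T-cell leukemias.

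Rpl13 was the reverse case. Its brightest probe, at 6.82, 6.73 and 6.86 without tumors against 7.08, 7.09 and 7.01 in DMH, was not called (-0.26 ± 0.23, adjusted p = 0.40, limma). Its second probe, at 5.71, 5.75 and 5.92 against 7.01, 6.93 and 6.83, was (-1.13 ± 0.14, adjusted p = 0.0022, limma). Both probes put the 3 arrays without tumors below DMH, and the sizes differed. With tumors the second probe read 6.59, 6.48 and 6.45, all below DMH. The second Rpl19 probe read 5.30, 5.49 and 5.51 without tumors, 5.95, 5.49 and 5.52 with tumors and 6.11, 5.96 and 5.95 in DMH. It fell by 0.57 without tumors where the first fell by 1.87, and its butyrate groups overlapped.

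Rps3, Rps18, Rpl6 and Rpl37 complete the group. The brightest Rps3 probe read 5.83, 5.67 and 5.72 without tumors, 6.34, 6.66 and 6.70 with tumors and 7.29, 7.18 and 7.14 in DMH. The second read 3.64, 3.80 and 3.78, then 5.08, 4.81 and 4.82, then 5.5, 5.43 and 5.44 in the same order of groups. The groups were separate by both Rps3 probes, with changes of -1.46 ± 0.15 and -1.72 ± 0.14 without tumors. The brightest Rps18 probe read 6.73, 6.40 and 6.72 without tumors, 7.59, 7.65 and 7.57 with tumors and 7.99, 7.9 and 7.91 in DMH. The second read 5.75, 5.86 and 5.92, then 6.44, 6.31 and 6.17, then 6.66, 6.53 and 6.57. These too were separate, with changes of -1.32 ± 0.15 and -0.74 ± 0.14. The second probe of Rpl6 read 2.85, 3.40 and 3.84 without tumors and 4.51, 5.05 and 5.03 with tumors, and gave -1.48 ± 0.31 without tumors and 0.02 ± 0.31 with tumors, the latter not called. DMH array 1 was lower than its fellows for this probe, at 4.36 beside 5.09 and 5.06, and array 1 was also the lowest DMH value of Rpl30. The brightest Rpl37 probe read 5.96, 5.85 and 6.0 without tumors, 6.33, 6.37 and 6.17 with tumors and 6.82, 6.69 and 6.69 in DMH, without overlap. The second was dim, from -6.16 (array 1 with tumors) to -3.87 (DMH array 1), and was not well above background on array 1 without tumors and array 1 with tumors. Its change of -0.94 ± 0.44 was not called (adjusted p = 0.13, limma), beside -0.80 ± 0.14 for the first.

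Other genes of the translation machinery were taken as lists. Of 48 measured cytosolic ribosomal protein genes outside the set, 29 fell and 1 rose without tumors against DMH, with a median of -0.70. Among named genes 14.2% were called lower and 14.6% higher. With tumors 3 fell and 1 rose, against 2.4% and 2.21% of named genes. Between the butyrate groups 19 were lower, against 6.01% of named genes, and none was higher, nor at an unadjusted p under 0.05. Rps12 fell by 2.53, Rpl9 by 1.55, Rpl34 by 1.54 and Rpl12 by 1.37 without tumors. Rpl21 was the gene that rose, by 1.29 ± 0.22 without tumors (adjusted p = 0.0060, limma), 0.95 ± 0.22 with tumors (adjusted p = 0.048, limma) and 1.12 ± 0.22 over all butyrate arrays (adjusted p = 0.028, limma).

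Elongation factors and other TOP messages moved in the same direction. Of 19 measured, 11 fell and none rose without tumors, where 14.2% of named genes were called lower. None rose at an unadjusted p under 0.05 either, and the median was -0.66. Pabpc1, which binds the poly(A) tail, fell by 2.75, Eef1b2 by 1.75, Rack1, a scaffold on the small subunit, by 1.58, and Eef1a1, which brings the aminoacyl-tRNA to the ribosome, by 1.35 on the log2 scale. With tumors 1 of 19 fell, Rack1, with -0.86 ± 0.14 (adjusted p = 0.029, limma), against 2.4% of named genes. Between the butyrate groups 10 of 19 were lower without tumors, against 6.01% of named genes.

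Initiation factors, ribosome assembly factors and mTORC1 pathway genes are read against the 14.2% of named genes called lower and 14.6% called higher without tumors. Of 51 initiation factors, 6 fell and 4 rose, with a median of -0.08. Eif4e2 fell by 1.60, and Eif4e, the protein that binds the cap of the message, rose by 1.21. Of 39 assembly factors, 10 fell and none rose (2 were higher at an unadjusted p under 0.05), with a median of -0.27, and Pes1 and Nhp2 fell by 1.54 and 1.43. Of 19 mTORC1 pathway genes, 2 fell and 4 rose. Larp1, which binds TOP messages, fell by 3.72 (SE 0.78, adjusted p = 0.011, limma), and Rheb, the activator of mTORC1, rose by 0.95 (SE 0.19, adjusted p = 0.010, limma). Of 78 mitochondrial ribosomal proteins, which belong to a separate ribosome, 20 fell and 5 rose, with a median of -0.08.

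**Figure D4:**
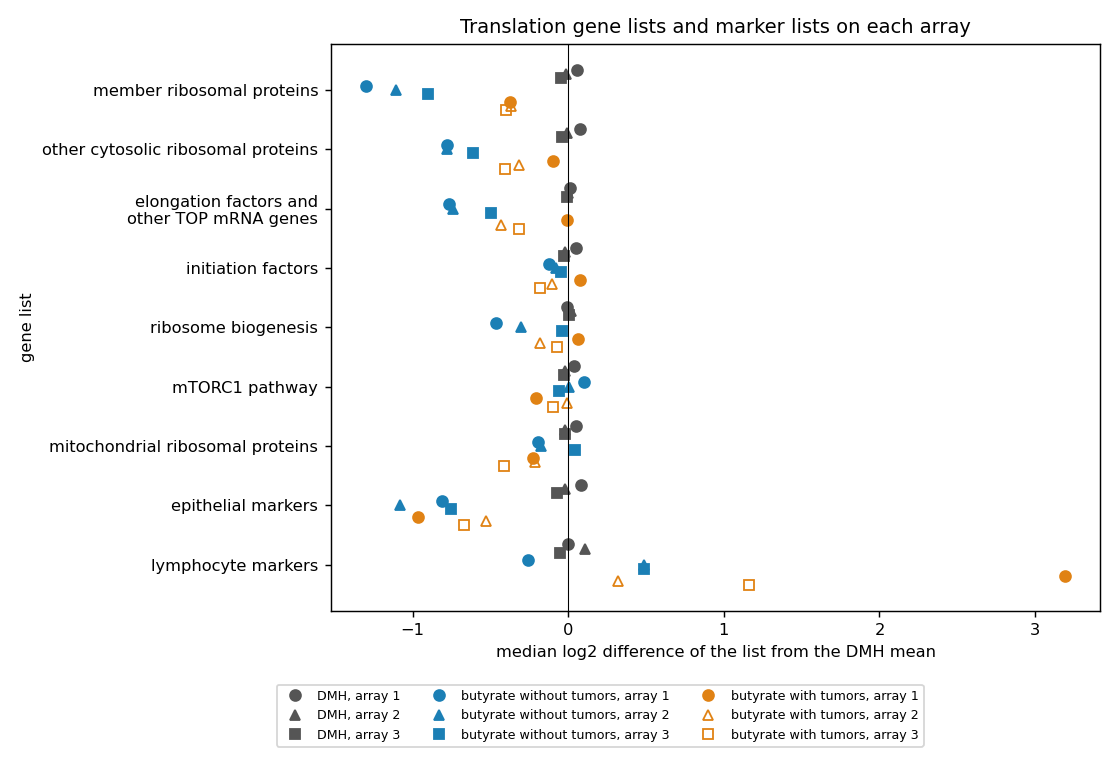
Each point is the median over the genes of a list of the log2 difference between 1 array and the DMH mean. The arrays without tumors lie between -1.30 and -0.90 for the members and between -0.20 and 0.04 for the mitochondrial ribosomal proteins; array 1 with tumors is apart for the lymphocyte markers, at 3.20.

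Markers of other cells differed between the same groups, and their part in the results above was not tested. Summed epithelial marker signal, in multiples of the 75th percentile and over 9 of 10 markers measured on all arrays, was 451 to 529 without tumors, 610 to 669 with tumors and 912 to 1046 in DMH. The member genes, summed the same way over 32 genes, gave 1781 to 1979 without tumors, 2920 to 3191 with tumors and 3914 to 4223 in DMH. In mucosa taken whole, fewer cells of a type and less message per cell cannot be told apart. Of the 10 epithelial markers, 6 fell without tumors (Lgals4 by 1.81, Krt18 by 1.24) and 4 fell with tumors. Counts of called markers, here and below, are read against all named genes. Of these, 14.2% were called lower and 14.6% higher without tumors, and 2.4% and 2.21% with tumors.

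All 7 goblet cell markers were well above background on every array. Of them 4 fell without tumors and 3 with tumors, and their sum was 448 to 603 without tumors, 215 to 858 with tumors and 1443 to 1579 in DMH. Of 7 smooth muscle markers 3 rose without tumors, and their sum was 381 to 832 without tumors, 432 to 870 with tumors and 221 to 378 in DMH. None of 8 lymphocyte markers was called by limma in any comparison, although 4 were higher with tumors than in DMH at an unadjusted p under 0.05, and their sum was 156 on array 1 with tumors, against 14.8 to 39.6 on the other arrays. Of 8 proliferation markers 3 fell without tumors, and their sum was 34.4 to 47.6 without tumors, 36.3 to 49.98 with tumors and 39.6 to 40.4 in DMH. Of 5 measured neutrophil markers 2 were well above background on all arrays, Mmp9 and S100a9, and both were called lower without tumors than in DMH (adjusted p = 0.0019 and 0.010, limma). The others were undetected on 1 or more arrays. The sum was 0.569 to 5.79 with tumors and 3.65 to 3.95 in DMH, and its value of at most 0.327 without tumors includes signals not well above background. Adipocyte markers summed to 9.18 to 46.3 without tumors, 4.09 to 9.54 with tumors and 18.5 to 20.4 in DMH. The 46.3 was array 1 without tumors, beside 11.2 and 9.18 on arrays 2 and 3. Of 4 measured adipocyte markers Adipoq was called. It was lower with tumors than in DMH (adjusted p = 0.042, limma) and than without tumors (adjusted p = 0.049, limma).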

How the data were processed

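Agilent 1-colour arrays (Cy3) were read from the scanner files of 9 samples. The authors deposited a processed intensity per spot, made with Feature Extraction 10.5.1.1 per the file headers (the steps inside that software are not given in the sources used here). The authors also deposited a table of log2 values without stated scaling. Each of its columns equalled log2 of the processed intensity minus 1 constant per array (SD of the difference at most 0.0081), and what that constant is stays unknown. The table was used as an alternative.

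Control spots and outlier spots were left out, spots of a probe were averaged, and log2 intensity minus the array's 75th percentile was taken. A probe was kept if well above background on at least 3 arrays with at least 2 values in each group, which left 28521 of 41174 probes. The number of arrays limits the precision. Probes were named by RefSeq accession through the RefSeq gene table of GRCm38.p6, which named 26933 probes with 1 symbol and left 14241 unnamed. For 4725 probes the accession differed between the annotation of the butyrate and the DMH files, but the same 46 member probes were found with either. The headers give the build mm9, so no coordinates of that gene table are printed.

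Changes were fitted with limma 3.58.1 (lmFit, eBayes; R 4.3.3, 2-sided), with Benjamini-Hochberg adjustment over all kept probes and a threshold of 0.05. All butyrate arrays against DMH was a 2-group fit, and the other comparisons came from a 3-group fit with 1 shared spread. Same-numbered samples were not treated as pairs.

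The members and the other gene lists were chosen with earlier results of these data known. Values on every array are given for up to 6 called members with the largest fall or rise per comparison, for members whose probes differ in call or by over 1 in log2 change, for members called between the butyrate groups (up to 6 by size), and up to 4 called genes of smallest p per other list and comparison could be named. Rps10, Rps14, Rpl5, Rpl18, Rps6 and Rps19 were added after their values were seen. Alternatives covered scaling, background correction, filters, probe choice, blocks for replicate and slide, and each array left out.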

Additional observations from a re-analysis of the deposited data

Results flagged for a closer look

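Of all 35 members, 19 were lower without than with tumors by the test of that difference, against 6.01% of named genes. The 10 members below passed it (limma, adjusted p between 0.0082 and 0.024), but they are among 11 named for the size of their changes, in part for this difference, so their number is no support beyond the count over all members. The difference, without tumors minus with tumors on the log2 scale, was -2.41 for Rpl30, -1.93 for Rpl6 and -1.65 for Rpl11. It was -1.43 for Rpl7, -1.41 for Rplp0, -1.34 for Rps4x and -1.28 for Rpl10. It was -1.13 for Rps24, -1.08 for Rplp1 and -1.04 for Rpl19. These are values of the brightest probes. The second probes of Rplp0 and Rpl19 and the least changed probe of Rpl7 were not called (-0.46, -0.21 and -0.48, adjusted p = 0.10, 0.40 and 0.061, limma). The second probe of Rpl6 and the remaining probe of Rpl7 were called, with -1.50 and -0.77. For each of these 10 genes the arrays without tumors, all on slide 1, were the lowest 3 of those measured, which were 8 arrays for Rpl6 and 9 for the others. The sign turns if the tumor status field, not the title, is right. With the slide as a fixed block, array 1 with tumors alone stands for its group and is assumed to vary like the other arrays. The difference of Rpl11 was then -1.51 and called, while those of Rpl30 (-1.53), Rplp0 (-0.93), Rpl7 (-0.89) and Rps4x (-0.84) were not. Rpl14 was the named member whose difference between the butyrate groups was not called (-0.37 ± 0.27, adjusted p = 0.36, limma). A rule on the gap between an end array and its neighbour, relative to the range of all butyrate arrays, marked no array for any of the 11 members. The difference between the butyrate groups widens that range. The rule can therefore miss an array that lies apart from its own group.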

How the results depend on the processing

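The members' median log2 change was negative in all 4 comparisons under every setting run, and no member named by size reversed. The calls held less well. All butyrate arrays against DMH gave 7 members lower, where 3.78% of the probes tested were called lower. That share moved with the setting and is given in brackets. The count was 1 under quantile scaling (3.80%) and 1 under normexp with quantile scaling (5.02%). It was 13 with the authors' values (5.37%), 14 with probes well above background on all 9 arrays (5.95%) and 22 with 3 groups in the fit (10.7%). It was 0 without scaling (0.14%), without the filter on dim probes (0.51%) and with the slide as a random block (0.06%). The median of -0.83 in this comparison moved to -0.42 under quantile scaling and under normexp, and to -1.67 without scaling. Without tumors against DMH (25 lower) gave 15 with the slide as a random block, and its median of -1.28 moved to -0.76 under quantile scaling, -0.80 under normexp, -2.36 without scaling, -1.06 with the authors' values and -1.07 with the median over a gene's probes. With tumors against DMH (4 lower) gave 14 with the authors' values and 11 with probes well above background on all arrays. It gave 0 under quantile scaling, normexp, no scaling, no filter and the random slide block. Its median of -0.35 moved to -0.072 under quantile scaling, -0.015 under normexp, -0.89 without scaling and -0.52 with the authors' values. Between the butyrate groups (19 lower) there were 0 without scaling, where the median was -1.30, and 1 with the slide as a fixed block, and the median was -0.46 with the authors' values. The cause of these moves was not tested.

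Scaling also moved the median of all probes. Without scaling it was -0.82 for all butyrate arrays, -1.06 without tumors, -0.58 with tumors and -0.48 between the butyrate groups. With the authors' values, which held 32 members, it was 0.21 without tumors, -0.15 with tumors and 0.36 between the butyrate groups, so the members' values above are to be read against these. Where no member was called lower, the count at an unadjusted p under 0.05 was 16 to 22 for all butyrate arrays, 2 to 16 with tumors and 15 between the butyrate groups. It was smaller for all butyrate arrays under quantile scaling and under normexp, where 1 member was called. There 11 and 10 were lower at that p and 2 and 4 higher, with 24 of 35 changes negative under each. Leaving out each array gave 0 to 16 members lower over all butyrate arrays, where 0.056% to 7.62% of all probes were called lower. For the other comparisons these shares are not given here. The counts were 21 to 29 without tumors (median -1.37 to -1.02) and 0 to 8 with tumors (median -0.39 to -0.32). Between the butyrate groups 2 to 20 were lower, with 0 to 1 higher there. Members called higher were 0 in every other setting run.

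Replicate numbers were not treated as pairs. The correlations of same-numbered deviations were all positive, from 0.022 to 0.273. A sample correlated best with its own number, among 3 candidates, in 10 of 18 tests. These values do not settle whether the numbers link samples. With a replicate block the members called lower were 0 over all butyrate arrays (0.62% of all probes), 25 without tumors, 0 with tumors and 18 between the butyrate groups. Chosen after seeing the data, leaving out slide 1 gave 13 lower and a median of -0.39 both for all butyrate arrays and for the group with tumors. Averaging DMH arrays 2 and 3, also chosen then, gave 0, 21, 0 and 16 lower in the 4 comparisons. In the first of these, all butyrate arrays against DMH, 0.049% of all probes were called lower.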
